A study of Mus musculus with 123 samples.

Results

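Transient receptor potential (TRP) channels are cation channels that open in response to heat, cold, irritant chemicals, stretch or signals from G protein-coupled receptors, and many of them are known from dorsal root ganglion (DRG) neurons, the sensory neurons of the trunk and limbs. Among nociceptors, the neurons that carry pain signals, they are known for turning heat and chemical stimuli into electrical activity. Described here are the transcripts of 9 TRP channel genes, taken by gene symbol from the 24134 genes of the deposited tables, with all 9 present: Trpv1, the capsaicin and heat receptor, Trpv2, a related channel of the vanilloid branch, Trpa1, the receptor for mustard oil and other irritants, Trpm2, a channel opened by oxidative stress, Trpm3, a heat-activated channel, Trpm8, the menthol and cold receptor, and the canonical channels Trpc1, Trpc4 and Trpc5.

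The study compared DRG neurons of the injured side after sciatic nerve transection (SNT) with neurons of the uninjured opposite side (control side) of adult mice aged 2 months, and asked how kinds of sensory neuron respond to axotomy. The day 3 samples came from L5 ganglia of female F1 mice of a CAST/Eij male and a C57BL/6 female and comprised 48 SNT-side cells, 22 control-side cells and 3 libraries of pooled neurons a side. The day 7 samples came from L3 to L5 ganglia of C57BL/6 mice and comprised 33 SNT-side cells (16 from females, 17 from males) and 14 control-side cells (7 from females, 7 from males). After the authors removed 11 cells as outliers, all of day 3, there remained 41 SNT-side and 18 control-side cells at day 3 and all 47 cells at day 7. Neurons were picked by hand and all mice had the same operation, so the control side is the opposite ganglion of an operated animal. Day 3 and day 7 also differ in strain, sex, ganglia, instrument and read length (50 and 75 bp), so effects of time cannot be told apart from these. The labels name no animal for a cell, so each side and day was treated as 1 sample of cells and no test was made between cells. The 3 libraries of a pool are parts of 1 lysate, so their p-values measure the spread between technical parts of 2 pools.

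Totals ran from 563462 to 2003817 counts in the pooled libraries and from 261351 to 1849130 counts in the kept cells. Markers of the labelled cell type were present: each of 7 pan-neuronal genes had a median above 10 CPM (counts scaled to a library total of 1000000) in every group. The pools of the sides differed in more than the TRP genes. The summed level of 10 glial markers was 6288 to 7136 CPM in the SNT pool and 12901 to 15465 CPM in the control pool, that of 5 markers of nonpeptidergic nociceptors (NP) 548 to 617 and 2893 to 2992 CPM, that of 4 markers of peptidergic nociceptors (PEP) 1100 to 1262 and 1630 to 2035 CPM, that of 7 markers of large myelinated neurons 1632 to 1711 and 1362 to 1605 CPM, and that of 4 markers of C-fibre low-threshold mechanoreceptors (C-LTMR) 86.2 to 139 and 837 to 982 CPM. The part of these differences in the TRP results was not tested. The column names gave the side of each pooled library, whereas a line of identifiers in the same table pairs the sides the other way round and the source label calls all 6 intact, so the directions in pools rest on the column names. Atf3, a transcription factor induced by axotomy, averaged 1466 ± 133 CPM in the 3 libraries named for SNT and 13.5 ± 7.03 CPM (SD) in the 3 named for the control side.

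In the pooled neurons at day 3, the capsaicin receptor and the irritant receptor both fell. Trpv1 was at 15.5, 16.5 and 24.5 CPM in the SNT libraries and at 176, 182 and 172 CPM in the control libraries. The sides did not overlap, and every control library was far above every SNT library. The fitted change was a log2 of -3.04 (SE 0.23, adjusted p = 5.6e-14, quasi-likelihood test of edgeR, Benjamini-Hochberg over 13509 genes), or 8.21-fold lower. Trpa1 was at 29.3, 44.4 and 27.4 CPM in SNT libraries and at 209, 280 and 234 CPM in control libraries, again without overlap. Its log2 change was -2.72 (SE 0.21, adjusted p = 7.8e-14 in the same fit), or 6.57-fold lower. Mrgprd, a receptor that marks NP neurons, averaged 1.07 CPM in the SNT pool and 1011 CPM in the control pool, and its part in the Trpa1 result was not tested. Fewer neurons of a kind and less RNA in each neuron cannot be told apart in a pool.

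Trpv2 went the other way, but by less than the 2-fold limit that was set for a call. Its SNT libraries held 167, 156 and 136 CPM and its control libraries 111, 90.6 and 78.1 CPM. All SNT libraries lay above all control libraries, and the log2 difference was 0.86 (SE 0.19, adjusted p = 4.4e-04 by edgeR), a 1.81-fold higher level. Trpm3, a heat-activated channel, held 20.8, 31 and 18 CPM in SNT libraries and 48.3, 28.9 and 21.5 CPM in control libraries. It had overlapping libraries and a log2 difference of -0.37 (SE 0.34, adjusted p = 0.48).

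The cold receptor Trpm8 was scarce, with 5.98, 13.1 and 5.49 CPM in the SNT libraries and 0, 2.38 and 1.77 CPM in the control libraries. The sides did not overlap, and Trpm8 rose by a log2 of 2.56 (SE 0.90, adjusted p = 0.033 by edgeR). This call rested on 36 counts against 3, a ratio of 5.30 with an exact 95% counting interval of 1.67 to 26.9. It was lost with DESeq2 (adjusted p = 0.093) and without SNT library 2 (0.18), control library 1 (0.13) or control library 3 (0.064), and the log2 was 3.3 without control library 2.

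Among the canonical channels, which open downstream of phospholipase C, Trpc4 was at 0, 0 and 0.998 CPM in the SNT libraries and at 12.4, 2.38 and 5.32 CPM in the control libraries. Trpc4 fell by 3.59 on the log2 scale (SE 1.18, adjusted p = 0.021 by edgeR), on 2 counts against 14, which put the control side 15.9 times as high with an exact 95% counting interval of 3.64 to 144. The call was lost without SNT library 1 (adjusted p = 0.087), SNT library 2 (0.068) or control library 1 (0.20). The fitted log2 was -2.78 without control library 1 and -5.67 without SNT library 3, which leaves the SNT side at 0. Trpc1 held 2.99, 0 and 3.49 CPM in SNT libraries against 12.4, 4.77 and 3.55 CPM in control libraries, a log2 difference of -1.37 (SE 0.85, adjusted p = 0.26). Trpm2 was at 2.99, 4.35 and 7.98 CPM in SNT and 5.50, 3.58 and 7.08 CPM in control libraries, with overlapping sides and a log2 difference of 0.15 (SE 0.73, adjusted p = 0.91), whose sign turned in 4 of 14 other settings. Trpc5, with 4 counts on the SNT side and 0 on the control side, was under the limit for low genes, and no fold is given.

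**Figure D1:**
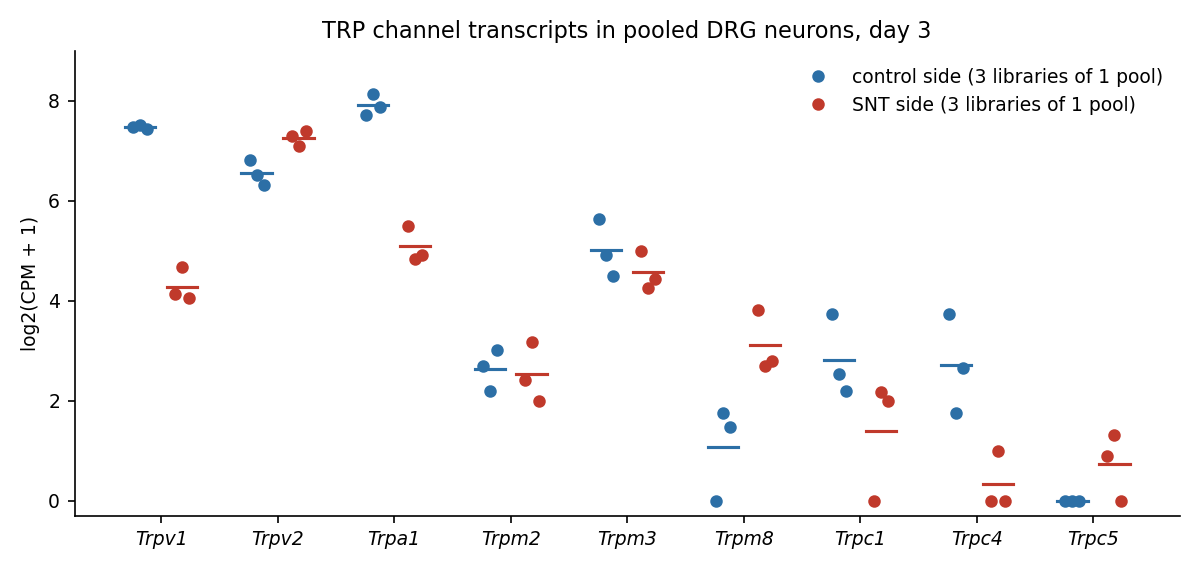
Level of the 9 TRP channel genes in pooled DRG neurons at day 3, as log2(CPM + 1), with 1 point for each of 3 libraries of 1 pool a side and a bar at their mean. Trpv1 and Trpa1 sit between 172 and 280 CPM in control libraries and between 15.5 and 44.4 CPM in SNT libraries, while Trpv2 is higher on the SNT side.

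Thus 8 of the 9 genes passed the limit of a mean of 1 CPM, 3 changed and were lower (Trpv1, Trpa1, Trpc4) and 1 changed and was higher (Trpm8), with a change taken as an adjusted p under 0.05 and a log2 beyond 1. So 4 of 8 changed, against 15.9% of all genes tested, of which 961 were lower and 1193 higher. With scaling by library size alone these numbers were 1265 and 978, the median log2 of all genes shifted from 0.02 to -0.14, and the same 4 TRP genes were called. The median log2 of the 8 genes was -0.87. The libraries of the sides did not overlap for 6 of the 8 genes, against 38% of all genes tested.

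Counts per kilobase of exon set the genes on 1 scale. In the control pool Trpa1 stood first at 56.6 ± 8.45 CPM per kb, followed by Trpv1 at 49.7 ± 1.44 and Trpv2 at 30.3 ± 5.46 CPM per kb (SD, n = 3 libraries). Trpa1 and Trpv1 differed by less than the spread of Trpa1. The other 6 genes were at 2.27 CPM per kb or less, in the order Trpm3, Trpc4, Trpc1, Trpm2, Trpm8 and Trpc5, and from Trpm3 to Trpm2 neighbours differed by less than the larger of their SDs, whereas Trpm2 and Trpm8 (0.718 ± 0.234 and 0.301 ± 0.269 CPM per kb) differed by more. In the SNT pool Trpv2 stood first at 49.7 ± 5.02 CPM per kb, ahead of Trpa1 at 7.91 ± 2.18 and Trpv1 at 5.29 ± 1.37 CPM per kb, and the other 6 genes were at 1.77 CPM per kb or less. Lengths were those of the exon union in GENCODE M21 (GRCm38), in which Trpv1 and Trpv2 lie on chromosome 11 (73234292 to 73261242 and 62574486 to 62600515) and Trpa1 on chromosome 1 (14872648 to 14918862). Exons of Trpm3 and Trpm8 overlap genes of the opposite strand there, and those of Trpm2 overlap small genes of its own strand, so reads of these genes may be shared. The exons of the other 6 genes overlap no other gene.

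Trpv1 and Trpv2, neighbours in sequence family and on the same chromosome, differed in opposite directions in the pools. Their start regions in RefSeq (GRCm38.p6, plus strand) are shown for that reason, with the bases from the annotated start onward in capitals, for chr11:73233899-73234198 and chr11:62574236-62574535, the latter the first of 3 starts listed for Trpv2.
Trpv1: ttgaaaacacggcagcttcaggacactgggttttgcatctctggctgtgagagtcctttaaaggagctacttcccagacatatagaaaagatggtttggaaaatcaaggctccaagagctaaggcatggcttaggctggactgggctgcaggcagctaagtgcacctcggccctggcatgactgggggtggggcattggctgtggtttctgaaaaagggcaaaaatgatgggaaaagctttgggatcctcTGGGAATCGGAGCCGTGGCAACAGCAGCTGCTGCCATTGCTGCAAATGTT
Trpv2: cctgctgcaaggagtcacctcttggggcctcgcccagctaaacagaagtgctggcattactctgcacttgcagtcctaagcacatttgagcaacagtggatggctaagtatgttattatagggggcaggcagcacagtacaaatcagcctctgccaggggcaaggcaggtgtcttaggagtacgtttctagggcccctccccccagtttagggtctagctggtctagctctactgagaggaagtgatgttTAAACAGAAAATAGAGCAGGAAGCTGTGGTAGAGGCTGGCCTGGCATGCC
The AP-1 element TGANTCA, the letters that Jun and Atf3 dimers are known to bind, was searched for on both strands in the 11 start regions listed for 8 of the 9 genes (Trpa1 had no entry). It was in none of the 11, against 7.81% of 32851 start regions of all genes, and the cAMP response element TGACGTCA was also in none, against 1.79%. At shares this low, 11 regions are too few for a count of none to set the TRP genes apart from all genes.

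In single cells at day 3, Trpa1 was again lower on the SNT side. In 18 control-side cells it ran from 0 to 341 CPM with a median of 80.7 CPM, and in 41 SNT-side cells from 0 to 355 CPM with a median of 0.65 CPM. The ranges were alike, and the difference lay in how many cells were high: 12 of 18 control-side cells (66.7%, exact 95% interval 41 to 86.7%) and 14 of 41 SNT-side cells (34.1%, 20.1 to 50.6%) were above 10 CPM. The mean was 131 ± 134 and 50.8 ± 99.1 CPM (SD over cells of 1 sample a side), a log2 ratio of -1.35. Thinned to 200000 counts a cell, the numbers of cells above 10 CPM were the same, 12 and 14. Subtype markers differed between these cells too, in both directions. Mrgprd was above 10 CPM in 9 of 18 control-side and 10 of 41 SNT-side cells. For Tac1 this was 12 of 18 and 6 of 41, and for Calca 15 of 18 and 32 of 41. Gfra3, a PEP marker, went the other way, at 4 of 18 and 25 of 41. The summed NP markers had medians of 1196 CPM in control-side and 1233 CPM in SNT-side cells. The summed PEP markers had medians of 2340 and 1096 CPM. The part of these markers in the Trpa1 difference was not tested. These intervals cover counting error only, since the labels name no animal for a cell.

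Trpv1, in contrast, had nearly equal means on both sides at day 3. It reached 701 CPM in the highest control-side cell and 855 CPM in the highest SNT-side cell, with medians of 3.82 and 4.05 CPM. Above 10 CPM were 7 of 18 control-side cells (38.9%, 17.3 to 64.3%) and 17 of 41 SNT-side cells (41.5%, 26.3 to 57.9%). The means of 74.0 ± 186 and 73.9 ± 180 CPM hung on few cells, since the highest control-side cell held 52.6% of that side's summed CPM. Without the highest cell of each side the log2 ratio was 0.54. The pooled libraries of the same day gave -3.04 for this gene, and no test set the cells against the pools.

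Of the 9 genes, Trpv2 alone was above 10 CPM in all cells of both sides at day 3. Control-side cells ran from 11.4 to 247 CPM with a median of 111 CPM and SNT-side cells from 55.9 to 276 CPM with a median of 133 CPM, a log2 ratio of means of 0.20. The lower end was higher on the SNT side, and the ranges overlapped nearly throughout. Trpm3 was almost as widespread, above 10 CPM in 17 of 18 control-side cells (94.4%, 72.7 to 99.9%) and 34 of 41 SNT-side cells (82.9%, 67.9 to 92.8%). Its level was lower on the SNT side, with medians of 52.5 and 23 CPM, highest cells at 104 and 70.9 CPM, and a log2 ratio of -0.86. Thinned cells gave 17 of 18 and 28 of 41.

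Trpm2 was above 10 CPM in 9 of 18 control-side and 10 of 41 SNT-side cells, with medians of 10.5 and 5.82 CPM and highest cells at 55.9 and 41.1 CPM. Thinned to equal depth, 4 of 18 and 8 of 41 cells were above 10 CPM, 22.2% and 19.5%. A thinned cell holds few counts at this threshold, so these shares cannot tell an effect of depth from sampling noise. Mean Trpm2 at full depth was 13.4 CPM in control-side and 7.49 CPM in SNT-side cells. The log2 ratio of means was -0.76 at full depth and -0.21 in thinned cells. Trpm8 was above 10 CPM in 3 SNT-side cells, at 84.2, 67.6 and 55.3 CPM, and in no control-side cell, where 0 of 18 cells allows a share of up to 16.7% (3 cells of the total) and the highest cell was at 6.80 CPM. These 3 cells make up most of the side's mean of 5.48 CPM, against 0.59 CPM in control-side cells, and the log2 ratio was 2.03. Only 1 of these 3 cells was also above 10 CPM for Trpv1 and none for Trpa1.

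Trpc4 was above 10 CPM in 5 of 18 control-side cells (27.8%, 9.69 to 53.5%) and 2 of 41 SNT-side cells (4.88%, 0.60 to 16.5%), with highest cells at 42.6 and 43.3 CPM and a log2 ratio of means of -1.43. Trpc1 was above 10 CPM in 4 of 18 and 2 of 41 cells, and its ratio was -0.63. Trpc5 was above 10 CPM in 1 of 18 and 3 of 41 cells, with a ratio of 0.03 and no cell over 15.7 CPM.

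At day 3, then, all 9 genes passed a mean of 1 CPM over the kept cells, 2 were at least 2-fold lower on the SNT side (Trpa1, Trpc4) and 1 at least 2-fold higher (Trpm8). That made 3 of 9, against 13.2% of all 13663 genes at that limit, of which 830 were lower and 973 higher. The median log2 ratio was -0.63 over the 9 genes and -0.04 over all genes. With a pseudocount of 10 CPM in place of 1, Trpa1 alone stayed 2-fold apart.

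**Figure D2:**
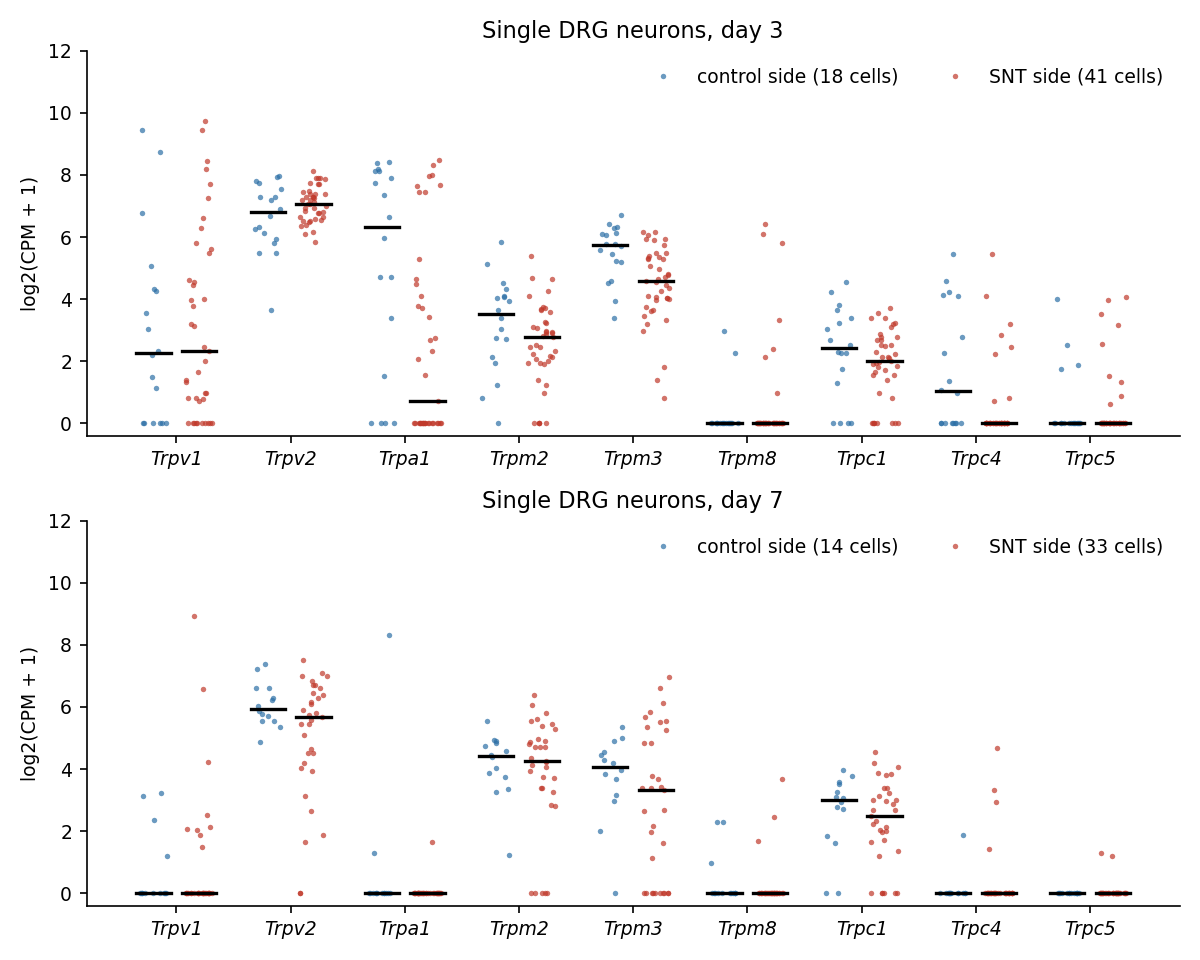
Level of the 9 TRP channel genes in each kept cell at day 3 (upper panel) and day 7 (lower panel), as log2(CPM + 1), with 1 point a cell and a bar at the median of each side. At day 3 Trpa1 is high in many control-side cells and at or near 0 in many SNT-side cells, with medians of 80.7 and 0.65 CPM, while at day 7 nearly every cell of both sides is at 0 for Trpa1.

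At day 7 the picked cells held little Trpa1 and Trpv1 on either side. Trpa1 was above 10 CPM in 1 of 14 control-side cells, at 319 CPM, and in no SNT-side cell, where 0 of 33 allows a share of up to 9.09%. The log2 ratio of -4.49 rested on that 1 control-side cell, and without the highest cell of each side it was -0.15. Trpv1 was above 10 CPM in no control-side cell (0 of 14, up to 21.4%) and in 3 of 33 SNT-side cells (9.09%, 1.92 to 24.3%), at 485, 93.8 and 17.7 CPM. The top SNT-side cell held 78.8% of that side's summed Trpv1, and the log2 ratio fell from 2.95 to 1.32 without the highest cell of each side. The subtype markers moved with these levels: Mrgprd was above 10 CPM in 9 of 18 control-side cells at day 3 and in 1 of 14 at day 7, and the part of this difference in the levels of Trpa1 was not tested.

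Trpv2 stayed the most widespread of the 9 at day 7 on the control side. It ran from 28.1 to 165 CPM with a median of 60.7 CPM in 14 control-side cells, all above 10 CPM, and from 0 to 180 CPM with a median of 49.9 CPM in 33 SNT-side cells, of which 27 were above 10 CPM (81.8%, 64.5 to 93.0%). Trpm2 was above 10 CPM in 11 of 14 control-side and 23 of 33 SNT-side cells, with medians of 20.3 and 18.2 CPM and a log2 ratio of means of 0.21. Trpm3 was above 10 CPM in 10 of 14 control-side cells (71.4%, 41.9 to 91.6%) and 13 of 33 SNT-side cells (39.4%, 22.9 to 57.9%). The Trpm3 medians were 16 and 8.98 CPM, but its means went the other way, 16.9 ± 11.2 and 21.2 ± 30.3 CPM, with the highest SNT-side cell at 124 CPM.

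Values within each sex were set side by side for Trpm3, Trpa1 and Trpv1. For Trpm3, 3 of 16 from females and 10 of 17 from males were above 10 CPM on the SNT side, against 4 of 7 and 6 of 7 on the control side. The log2 ratio of means was -0.38 within females and 0.57 within males, and the difference between the sexes was not tested. Within females Trpa1 gave a log2 ratio of -0.09, as the 1 high cell came from a male. Trpv1 had a higher SNT-side mean in both sexes, at 30.8 against 2.50 CPM in females and 7.2 against 0.60 CPM in males, on 1 and 2 cells above 10 CPM.

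The remaining channels were sparse at day 7. Trpc1 was above 10 CPM in 4 of 14 control-side and 6 of 33 SNT-side cells, at a log2 ratio of -0.14. Trpm8 and Trpc4 were each above 10 CPM in 1 SNT-side cell, at 11.9 and 24.3 CPM, and Trpc5 in none of either side. Of the 6 genes with a mean of 1 CPM at day 7, 1 was at least 2-fold lower (Trpa1) and 1 at least 2-fold higher (Trpv1), so 2 of 6 were apart, against 9.86% of 13320 genes, and the median log2 ratio was 0.04 over the 6 genes and -0.03 over all genes.

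**Figure D3:**
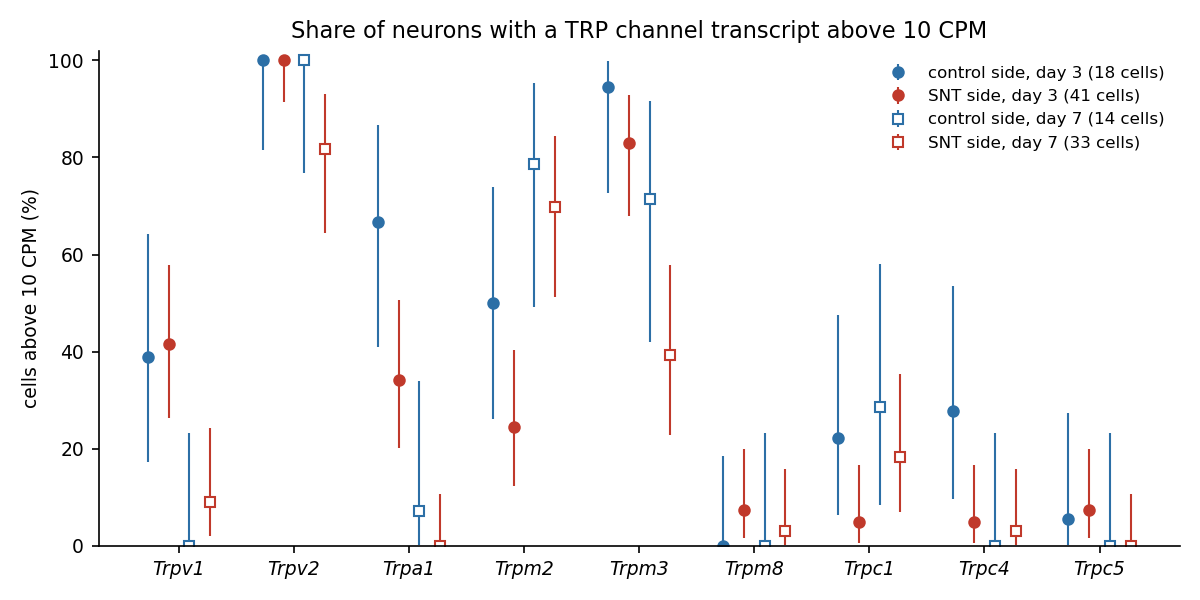
Share of kept cells above 10 CPM for each TRP channel gene, with circles for day 3, squares for day 7, blue for the control side, red for the SNT side, and exact 95% binomial intervals that cover counting error only. Trpv2 is at or above 81.8% in every group, and Trpa1 falls from 66.7% of control-side to 34.1% of SNT-side cells at day 3.

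**Figure D4:**
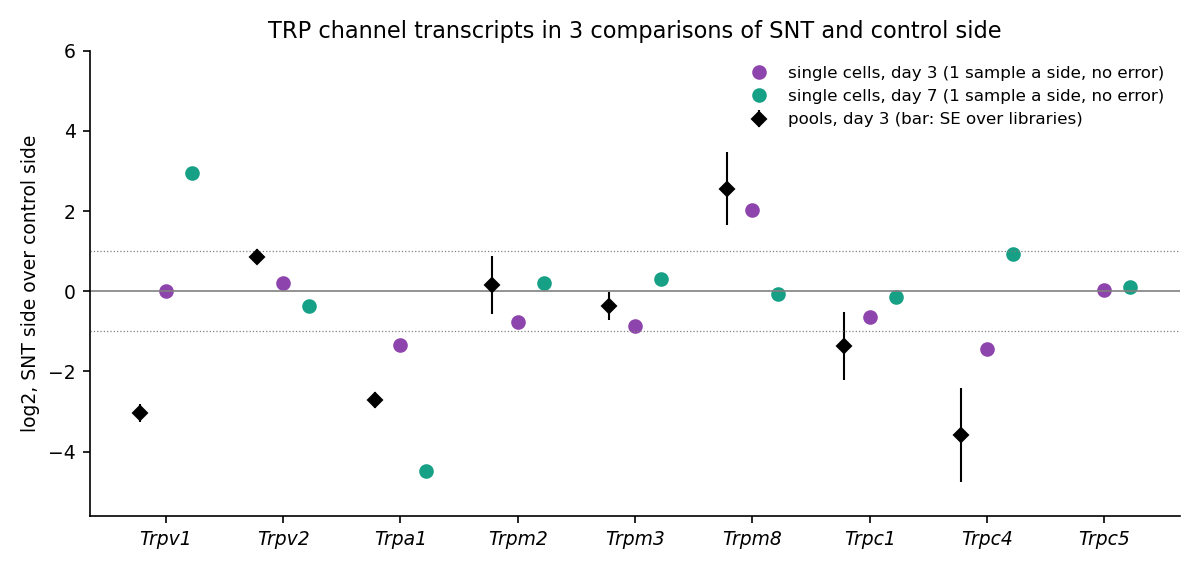
Difference between SNT and control side for each gene on a log2 scale, from edgeR in pools of day 3 (diamonds, bars of 1 SE over libraries) and as ratios of mean CPM + 1 in cells of day 3 and day 7 (circles, with no error since each side is 1 sample of cells). Dotted lines mark 2-fold. Trpa1 is below the lower line in all 3 comparisons, and Trpv1 is at -3.04, -0.00 and 2.95. The day 7 ratios rest on few cells: 1 control-side cell holds 99.6% of that side's summed Trpa1, and 1 SNT-side cell holds 78.8% of that side's summed Trpv1.

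SNT-side cells at day 3 fell into separate ranges of Atf3, with 11 cells at 0.65 to 23 CPM and 30 cells at 951 to 4436 CPM, while no control-side cell exceeded 75.7 CPM. Trpa1 was above 100 CPM in 8 of the 11 cells with low Atf3 and in 0 of the 30 with high Atf3, where the highest was at 37.8 CPM. On the control side 8 of 18 cells were above 100 CPM of Trpa1. Trpv1 was above 100 CPM in both ranges at day 3: 2 of the 11 and 4 of the 30 cells exceeded that level, and the top Trpv1 cell of all, at 855 CPM, was in the high range of Atf3. The Trpm3 median was 53.0 CPM in the 11 cells, 17.1 CPM in the 30 cells and 52.5 CPM on the control side. Trpv2 had medians of 108, 145 and 111 CPM in the same order. All 3 cells above 10 CPM of Trpc5 and both above 10 CPM of Trpc4 were among the 11, as were 2 of the 3 above 10 CPM of Trpm8. At day 7, 12 SNT-side cells had Atf3 of 704 to 1778 CPM and 21 of 0 to 13.9 CPM, and all 3 cells above 10 CPM of Trpv1 were among the 21. Trpm2 was above 10 CPM in 4 of these 12 and 19 of these 21 cells, and Trpv2 in 12 and 15. These cells were told apart by a measured gene and share 1 sample, so the values are a description without a test.

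**Figure D5:**
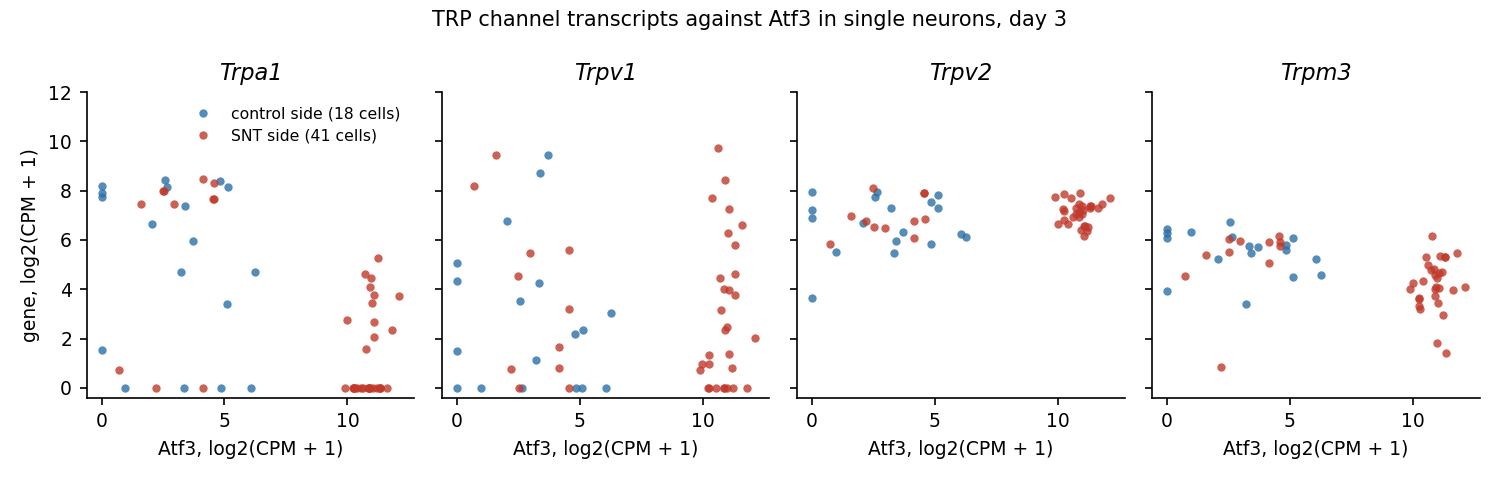
Trpa1, Trpv1, Trpv2 and Trpm3 against Atf3 in each kept cell of day 3, both as log2(CPM + 1), with blue points for 18 control-side and red points for 41 SNT-side cells. Red points above 100 CPM of Trpa1 occur only in the 11 SNT-side cells with Atf3 of at most 23 CPM, while Trpv1 at this day is high in cells of either range.

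Within the control side at day 3, the TRP genes followed the markers of different kinds of neuron. All 9 cells above 10 CPM of Mrgprd were also above 10 CPM of Trpa1, with a Spearman rho of 0.80 over 18 cells. Trpv1 rose with Calca (rho 0.76) and Tac1 (rho 0.66), peptide genes of PEP neurons, and its rho with Trpa1 was 0.15. Trpv2 had a rho of 0.76 with Mrgprd and -0.77 with Nefh, the heavy neurofilament of large myelinated neurons. Trpm2 went against Mrgprd, with a rho of -0.63 and only 1 cell above 10 CPM of both. On the SNT side, over 41 cells, the rho of Trpa1 with Mrgprd was 0.61 and that of Trpv1 with Tac1 0.60. Trpv1 with Calca gave 0.23 there, while Trpa1 with Calca gave 0.68 against 0.07 on the control side, and Trpv2 gave 0.06 with Mrgprd and 0.11 with Nefh. All these cells share a sample and differ in depth, and the differences between sides were not tested.

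Trpv1 and Trpa1 were together above 10 CPM in 5 of 18 control-side cells, where 7 had the first and 12 the second, and in 7 of 41 SNT-side cells, where 17 had the first and 14 the second. The median number of the 9 genes above 10 CPM in a cell was 4 in control-side and 3 in SNT-side cells at day 3, and 3 and 2 at day 7. In every kept cell of either day at least 1 of the 9 was above 10 CPM.

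The genes whose ranks across the 106 kept cells, centred within each side and day, were most like those of a TRP gene were sought among 10562 genes for the 5 TRP genes above 10 CPM in at least 20 cells. For Trpa1 they were Mrgprd (rank correlation 0.66), Mrgpra3 (0.63), a receptor of itch neurons, and Paqr5 (0.60). In day 7 cells alone, where 1 cell was above 10 CPM of Trpa1, Mrgpra3 and Paqr5 dropped to 0.18 and 0.19. Mrgprd was at 0.59 and in place 1 there, but it was above 10 CPM in only 1 of 14 control-side and 0 of 33 SNT-side cells. In day 3 cells alone Mrgprd, Mrgpra3 and Paqr5 took places 46, 11 and 38. For Trpv1 they were Ctxn1 (0.64), Adcy5 (0.60), an adenylyl cyclase, and Kif13b (0.58), a kinesin. For Trpv2 they were Txn1 (0.62), thioredoxin, Pgam1 (0.54), a glycolytic enzyme, and Cd200 (0.54). For Trpm2 they were Mrpl4 (0.56), Ablim1 (0.56) and Bzrap1 (0.53), and for Trpm3 Prkar2b (0.68), a regulatory subunit of protein kinase A, Cd82 (0.64) and Prkcd (0.64), a protein kinase C. In day 3 and then day 7 cells alone, Ctxn1 took places 3 and 1, Adcy5 1 and 42, and Kif13b 12 and 2. Txn1 took places 4 and 60, Pgam1 20 and 95, and Cd200 55 and 17. For Mrpl4 they were 62 and 3, for Ablim1 1 and 269, and for Bzrap1 34 and 36. Those of Prkar2b were 1 and 6, of Cd82 6 and 33, and of Prkcd 13 and 15.

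Among other TRP family genes, Trpc6, a channel opened by diacylglycerol, averaged 55.8 ± 20.9 CPM in the control pool and 6.49 ± 0.36 CPM in the SNT pool (SD, n = 3 libraries). Its log2 change was -2.92 (SE 0.37, adjusted p = 4.3e-08 by edgeR), beside -3.04 for Trpv1 and -2.72 for Trpa1. In day 3 cells Trpc6 had a log2 ratio of -0.98. Mcoln2, an endolysosomal channel, was at 14.7 ± 4.11 CPM in the SNT pool and at 0 in all 3 control libraries, at least 10.0-fold higher when set against 3 counts over the control libraries (adjusted p = 1.5e-05).

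Of regulators and partners of TRP channels, 20 were listed, and they showed more falls than rises in pools, with 5 changed and lower, 1 changed and higher, and a median log2 of -0.30 against 0.02 over all genes. Over all genes tested 15.9% changed, 961 lower and 1193 higher. Plcb3, a phospholipase C, went from 634 ± 74.6 to 97.5 ± 3.2 CPM (log2 -2.54, adjusted p = 4.5e-17), Prkca, a protein kinase C, from 379 ± 52.7 to 65.1 ± 1.71 CPM (log2 -2.38, adjusted p = 6.3e-15), and the G protein subunit Gnaq from 356 ± 52.1 to 110 ± 10.0 CPM (log2 -1.53, adjusted p = 4.0e-10). Prkce, a kinase known to sensitise Trpv1, changed by a log2 of -1.12 (adjusted p = 1.2e-07). Hrh1, the histamine H1 receptor, changed by -2.49 (adjusted p = 0.019), a call that 7 of 14 other settings lost, among them those without SNT library 2 (0.068), SNT library 3 (0.061), control library 1 (0.068) or control library 2 (0.16), while without SNT library 1 the log2 was -3.88. The 1 rise was Ano1, the calcium-activated chloride channel known to couple to Trpv1, from 5.63 ± 8.27 to 51.5 ± 8.66 CPM (9.92-fold, adjusted p = 5.8e-07). Its control libraries were uneven, at 15.1, 0 and 1.77 CPM, and the log2 change was 6.10 without control library 1 and 2.62 without control library 2. In cells, 6 of 20 were at least 2-fold lower and 2 higher at day 3, and 3 of 19 lower and 1 higher at day 7, with median log2 ratios of -0.57 and -0.11. Over all genes 13.2% were apart at day 3 (830 lower, 973 higher) and 9.86% at day 7 (465 lower, 849 higher). At day 3 the log2 ratios were -1.37 for Plcb3, -1.32 for Prkca, -1.08 for Gnaq, -1.19 for Prkce, 2.41 for Ano1 and 0.09 for Hrh1, which was at 5.23 CPM in SNT-side and 4.85 CPM in control-side cells. Pirt, a membrane protein that binds Trpv1 and Trpm8, was lower in the SNT pool by less than the 2-fold limit (log2 -0.58, adjusted p = 0.0018).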

How the data were processed

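Hand-picked DRG neurons were lysed singly or as pools, amplified by Smart-seq2 without molecular identifiers, so that intervals cover counting error only, and sequenced. The authors deposited expected counts per gene, named TPM but with totals that differ between libraries (223967 to 2003817) and mostly whole values. The submitters' processing notes name Bowtie2, RSEM, CASAVA 1.8.2 and mm9, and the authors removed 11 outlier cells. From these values CPM was computed as value over library total. Pooled libraries were rounded to whole counts, which changed a library total by at most 0.00757%, scaled by TMM and tested with edgeR 4.0.16 (quasi-likelihood, genes of mean 1 CPM or more, Benjamini-Hochberg) on 3 against 3 libraries. DESeq2 1.42.0 and limma 3.58.1 served as alternatives. For cells, ratios are log2 of mean CPM + 1, and a gene counted as apart at 2-fold. Cells were thinned to 200000 counts to compare shares. Doublets were not called, since cells were picked singly. The labels for the day 7 cells name 3 and 7 days in the protocol, and their titles were used. The number of neurons in a pool is given as 106 in 1 source and 50 in another. Named genes are the 9 members, list genes that passed the test, and the 3 genes most like each member by rank correlation. A result on other TRP family genes, with the counts over that list, is not reported here. Members and lists were chosen with earlier results of these data known. Coordinates and lengths are from GENCODE M21 on GRCm38, and start regions from RefSeq, not the build the authors used.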

Additional observations from a re-analysis of the deposited data

Results flagged for a closer look

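Among the 7 SNT-side cells of day 3 that the authors removed as outliers, and that no comparison above uses, 2 TRP genes exceeded every kept control-side cell. The highest removed cell held 132 CPM of Trpm3, against 104 CPM in the highest kept control-side cell, and Trpm3 was above 10 CPM in all 7. Of the 4 removed control-side cells, 2 exceeded that level too, up to 127 CPM. The highest removed SNT-side cell for Trpm8 held 14.5 CPM, against 6.80 CPM.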

How the results depend on the processing

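The calls of Trpv1 and Trpa1 in pools held in all 15 other settings, with log2 changes of -3.33 to -2.88 and -2.91 to -2.57. Those of Trpm8 and Trpc4 rested on few counts. With a limit of 10 CPM the number of TRP genes changed was 2, since the scarce genes were not tested, and with each library left out it was 2 to 4. With a replicate block it was 3, as Trpc4 was lost (adjusted p = 0.066), and no other TRP call changed. The numbers do not pair the libraries, since same-numbered deviations correlated at 0.06, -0.02 and -0.01. In day 3 cells a pseudocount of 10 CPM left 1 gene 2-fold apart. At day 7 the number was 0 with medians over cells, 1 without the highest cell of each side and 1 within females. No direction of a called value was reversed. Depth limits Trpm2, Trpm8, Trpc1, Trpc4 and Trpc5, with 0 to 36 counts in a pool, and 1 sample of cells a side gives no error between animals.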
